A study of Mus musculus with 39 samples.

Results

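The 8 genes described here, Ccl2, Ccl7, Ccl8, Ccl12, Pf4, Cxcl2, Ccl6 and Ccl9, encode chemokines that draw myeloid cells. They were taken by symbol from expression tables of 28023 genes, and all 8 were listed in both. The study transplanted stool from human volunteers into C57BL/6 mice of wild-type genotype. The stool came after 6 days of CZA, an abbreviation the labels do not spell out, or after 6 days of CZA with DAV132, a colon-targeted adsorbent, so every group carries CZA-exposed stool. The mice were implanted under the skin with MCA-205, a mouse fibrosarcoma line, 2 weeks later, and were given 4 injections of anti-PD-1 or of an isotype antibody, 250 µg each. The 19 libraries labelled bulk tumour are from the first experiment, and 20 libraries of tumour-derived CD8+ T cells are from its repeat. A set has 4 groups, CZA or CZA+DAV132 with isotype or anti-PD-1, of 5 libraries each, and in the tumour set CZA+DAV132 with isotype has 4. The arms differ in the stool given, so DAV132 and other differences between the stools cannot be told apart.

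Chemokines are small secreted proteins that guide cells along a gradient through receptors coupled to G proteins. Ccl2, Ccl7 and Ccl12 act on CCR2 and bring monocytes out of the blood into inflamed tissue and tumours, while mouse Ccl8 acts on CCR8. Cxcl2 draws neutrophils through CXCR2, and Ccl6 and Ccl9 act on CCR1. Pf4, platelet factor 4, is stored in platelets and is also made by macrophages. In tumours these ligands are made largely by macrophages, monocytes and stromal cells, and many are induced through NF-kB, a factor that drives inflammatory genes.

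The genes lie in clusters. On GRCm38, by the GENCODE M21 annotation, Ccl2 (ENSMUSG00000035385, chromosome 11, 82035571 to 82037453) is followed after 8.3 kb by Ccl7 (82045712 to 82047525). Ccl12 (82101845 to 82103400) lies 11.8 kb before Ccl8 (82115185 to 82116799), and all of these are on the plus strand. Ccl9 (83572919 to 83578636) and Ccl6 (83587882 to 83593087) are 9.2 kb apart on the minus strand of the same chromosome. Pf4 (chromosome 5, 90772435 to 90773383) and Cxcl2 (90903871 to 90905938) are on the plus strand and have Cxcl3, Cxcl15 and Cxcl1 between them.

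The 250 bases before the start are shown for Cxcl2, Ccl12 and Ccl8, from RefSeq on GRCm38.p6. Cxcl2 had the largest change among the 8 under anti-PD-1 in the CZA+DAV132 arm. Ccl12 and Ccl8 are neighbours, of which Ccl12 passed as lower in that contrast and Ccl8 did not pass. These neighbours were not tested against each other. All 3 windows are on the plus strand: Cxcl2 at chr5:90903649-90903898, Ccl12 at chr11:82101595-82101844 and Ccl8 at chr11:82114935-82115184. The RefSeq start of Cxcl2 lies after its GENCODE start at 90903871, so the end of its window is inside the gene as placed by GENCODE. Capitals mark matches on either strand to the motifs of AP-1, PU.1 and the TATA box that are spelled out after the windows.
Cxcl2: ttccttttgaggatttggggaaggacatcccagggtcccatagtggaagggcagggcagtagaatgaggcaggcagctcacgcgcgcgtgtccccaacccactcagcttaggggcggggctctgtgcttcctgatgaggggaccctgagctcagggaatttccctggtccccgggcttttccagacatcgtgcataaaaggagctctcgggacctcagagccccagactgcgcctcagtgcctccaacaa
Ccl12: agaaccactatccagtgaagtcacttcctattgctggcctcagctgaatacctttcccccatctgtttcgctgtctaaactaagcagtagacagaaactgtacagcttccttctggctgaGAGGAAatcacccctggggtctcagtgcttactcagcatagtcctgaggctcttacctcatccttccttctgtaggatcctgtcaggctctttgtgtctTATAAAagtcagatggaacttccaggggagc
Ccl8: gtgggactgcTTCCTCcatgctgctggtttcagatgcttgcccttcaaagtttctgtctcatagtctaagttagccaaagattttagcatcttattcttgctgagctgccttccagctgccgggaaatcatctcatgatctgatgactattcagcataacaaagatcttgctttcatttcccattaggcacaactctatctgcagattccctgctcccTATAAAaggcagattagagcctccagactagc

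RefSeq windows were matched for 6 of the 8 genes: Ccl8, Ccl12, Pf4, Cxcl2, Ccl6 and Ccl9. The PU.1 letters GAGGAA were in 3 of the 6, Ccl12, Ccl8 and Pf4, against 23.3% of all 32851 windows. The TATA box letters TATAAA were in 3, Ccl12, Ccl8 and Ccl9, against 12.4%. The AP-1 letters TGANTCA were in 1, Ccl9, against 6.75%. The Cxcl2 window shown holds none of these letters. The matches describe letters only.

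Values were deposited as TPM, a level scaled for transcript length and to a fixed total per library, so the sequencing depth is unknown. T cell markers summed to 3675 to 15779 TPM per library in the CD8 set. They summed to 4164 to 13602 TPM in the libraries labelled bulk tumour, where fibroblast and sarcoma markers summed to 7.91 to 1888 TPM, which goes against a whole-tumour label. In the CD8 set 10 predicted-gene entries took 11.5% to 67.8% of the summed level in libraries 16 to 20, from CZA+DAV132 with anti-PD-1, and 0.307% to 25.0% in libraries 1 to 15. Library 19, at the upper end, and library 16 stand apart by their median-ratio scaling factors, 0.35 and 0.62 against 0.94 to 1.23 in the others. In the tumour set these entries took 49.5% in library T026 and 13.2% in library T985. The labels do not tie libraries to mice, so p-values measure the spread between libraries, which may be technical.

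All 8 chemokines were detected in the CD8 set, where the median TPM over 20 libraries was 51.3 for Ccl2, 38.3 for Ccl12, 32.5 for Ccl8 and 27.8 for Ccl7. The CCR1 ligand Ccl6 had a median of 14.5 TPM, Pf4 13.7, Ccl9 5.67 and Cxcl2 2.18. Ranges of neighbours in this order overlapped throughout, since single genes spread widely. Ccl2 ran from 4.27 to 211 TPM and Ccl8 from 2.27 to 66.3 TPM. Cxcl2 was listed at 0 in 1 library.

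Under anti-PD-1, 4 of the 8 fell in the CD8 set: Ccl12, Pf4, Cxcl2 and Ccl6. They passed in the CZA+DAV132 arm, with log2 changes from -2.21 to -1.24, and again in the average over both arms, with -1.91 to -1.04. Ccl2, Ccl7 and Ccl9 had negative changes that did not pass, and the change of Ccl8 was near 0. The test was limma on log2(TPM + 1), a scale that understates changes of low genes, with Benjamini-Hochberg adjustment over 12942 genes and calls under an adjusted p of 0.05. Of all tested genes 23.5% were called in the CZA+DAV132 arm and 19.4% were called lower. For the average these shares were 12.9% and 10.8%. The median change was -1.20 over the 8 chemokines and -0.34 over all genes in the CZA+DAV132 arm, and -1.04 against -0.17 in the average. With median-ratio scaling the median over all genes moved to -0.0016 in the arm and 0.0033 in the average, and that over the 8 chemokines to -0.78 and -0.82. Calls over all genes, 533 higher and 2509 lower in the arm, then became 1481 and 1830, and those in the average went from 273 and 1394 to 1271 and 1715. In bulk libraries fewer cells of a type and less RNA per cell cannot be told apart.

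**Figure D1:**
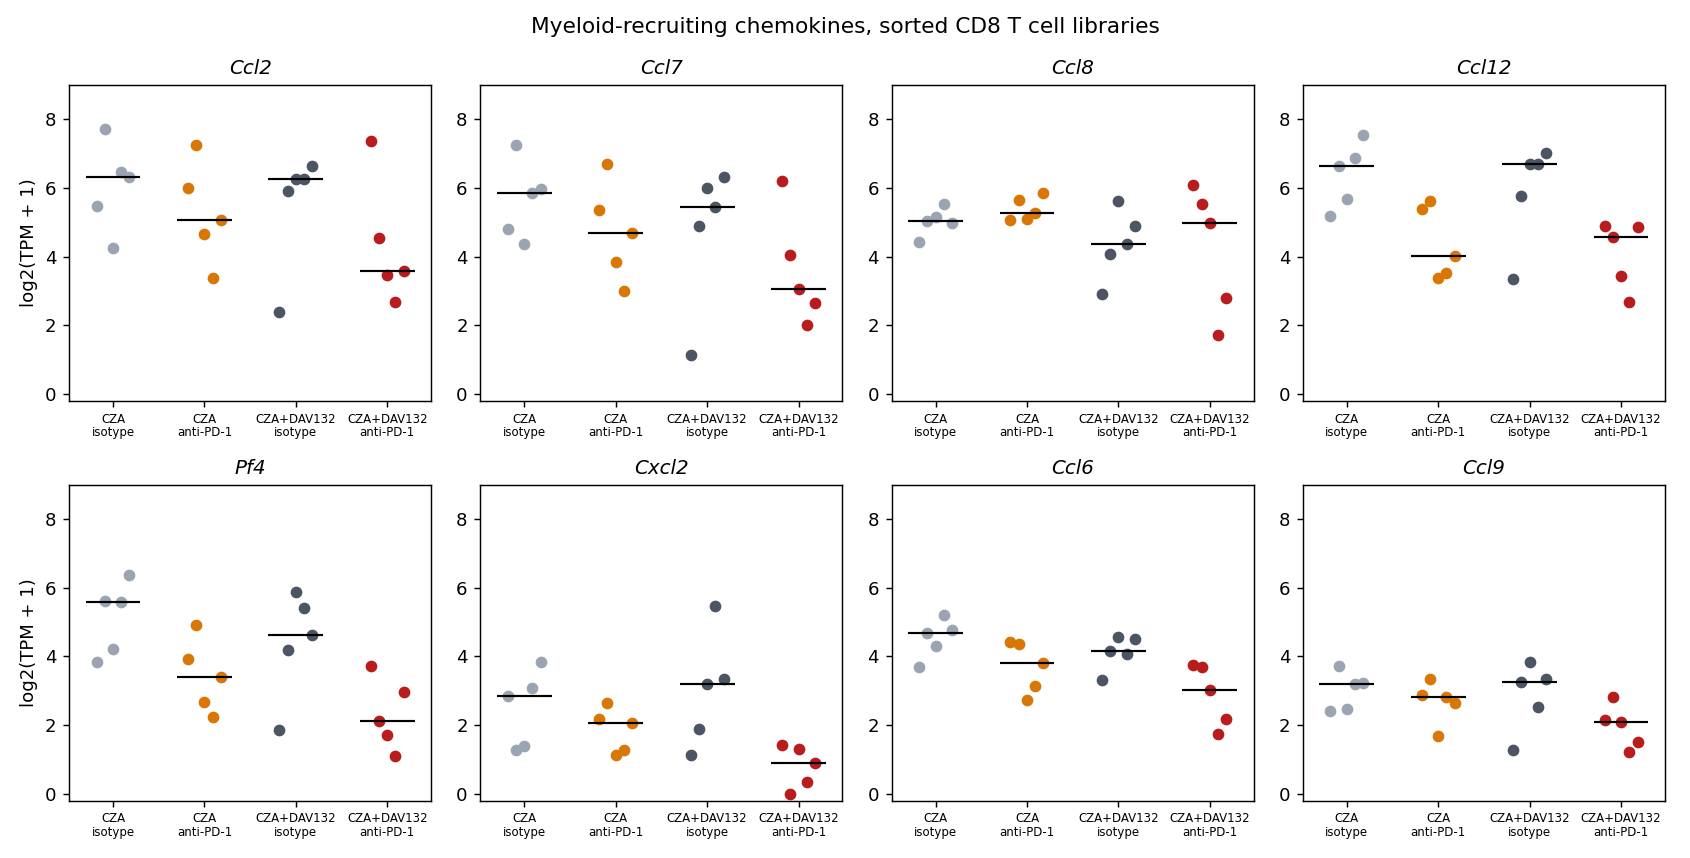
Level of each chemokine in the 20 CD8 libraries as log2(TPM + 1) on the vertical axis, by group on the horizontal axis, with a point for each library and a bar at the group median. The isotype median of each arm exceeds every anti-PD-1 point for Ccl12, Pf4, Cxcl2 and Ccl6, while for Ccl8 it exceeds 0 of 5 points in the CZA arm and 2 of 5 in the CZA+DAV132 arm. For Ccl9 it exceeds 4 of 5 points in the CZA arm and 5 of 5 in the CZA+DAV132 arm. The share of all genes placed like this was not counted.

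Ccl12, a ligand of CCR2 that attracts monocytes, was at 35.5, 98.8, 50.4, 116 and 184 TPM in the CZA isotype libraries 1 to 5 and at 41.2, 48.4, 9.40, 10.4 and 15.1 TPM in the CZA anti-PD-1 libraries 6 to 10. In the CZA+DAV132 arm it was at 9.10, 53.9, 104, 102 and 129 TPM in the isotype libraries 11 to 15 and at 28.8, 22.8, 9.82, 5.36 and 28.4 TPM in the anti-PD-1 libraries 16 to 20. In each arm the isotype median exceeded all 5 anti-PD-1 values, though the groups overlapped. The change was -1.82 ± 0.64 (SE, limma adjusted p = 0.0430) in the CZA+DAV132 arm and -1.91 ± 0.45 (adjusted p = 0.0167) in the average.

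Pf4 was at 13.2, 47.7, 17.7, 47.1 and 81.8 TPM with isotype and 14.2, 29.3, 5.36, 3.75 and 9.62 TPM with anti-PD-1 in the CZA arm. Its values in the CZA+DAV132 arm were 2.65, 17.4, 58.2, 41.9 and 23.7 TPM with isotype and 12.1, 3.32, 2.27, 1.15 and 6.74 TPM with anti-PD-1. Library 11 was the low isotype library, and all 5 anti-PD-1 libraries were below the isotype median in each arm. The change was -2.08 ± 0.66 (limma adjusted p = 0.0284) in the CZA+DAV132 arm and -1.89 ± 0.47 (adjusted p = 0.0197) in the average. Markers of platelets and megakaryocytes, the best-known source of Pf4, summed to 0.206 to 2.53 TPM per library, and none of the 9 passed the filter of 1 TPM in 4 libraries.

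Cxcl2, which attracts neutrophils, was at 6.16, 1.41, 1.61, 7.46 and 13.3 TPM with isotype and 3.48, 5.22, 1.21, 1.44 and 3.14 TPM with anti-PD-1 in the CZA arm. The CZA+DAV132 arm had 1.18, 2.69, 8.17, 43.1 and 9.05 TPM with isotype, and with anti-PD-1 it was at 1.67, 0, 1.45, 0.268 and 0.868 TPM. Isotype library 14 was far above the others, and no anti-PD-1 library of the CZA+DAV132 arm exceeded 1.67 TPM. The change was -2.21 ± 0.61 (limma adjusted p = 0.0152) in the CZA+DAV132 arm and -1.42 ± 0.43 (adjusted p = 0.0346) in the average. In the CZA arm it was -0.63 ± 0.61, and the difference between the arms, -1.58 ± 0.86, did not pass (adjusted p = 0.355). Neutrophil markers summed to 1.16 to 57.7 TPM per library, and 3 of the 10 passed the filter.

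Ccl6, a CCR1 ligand, was at 11.9, 24.7, 18.7, 35.5 and 26.5 TPM with isotype and 20.2, 19.6, 5.58, 7.74 and 13.1 TPM with anti-PD-1 in the CZA arm. With CZA+DAV132 stool it was at 8.84, 16.8, 22.6, 15.8 and 21.7 TPM and 12.6, 12.0, 7.07, 2.36 and 3.55 TPM in the same order. The groups overlapped, and 3 of the 5 anti-PD-1 libraries of the CZA+DAV132 arm lay below its lowest library. The change was -1.24 ± 0.40 (limma adjusted p = 0.0317) in the CZA+DAV132 arm and -1.04 ± 0.29 (adjusted p = 0.0256) in the average. Its neighbour Ccl9, also a CCR1 ligand, was at 1.41, 8.47, 13.2, 4.76 and 9.17 TPM with isotype and 3.41, 6.11, 3.24, 1.32 and 1.83 TPM with anti-PD-1 in the CZA+DAV132 arm. All 5 of these anti-PD-1 libraries were below the isotype median, but the change of -0.89 ± 0.41 did not pass (adjusted p = 0.123). In the CZA arm Ccl9 was at 4.30, 12.2, 4.49, 8.26 and 8.41 TPM and 6.40, 9.21, 2.21, 6.11 and 5.24 TPM.

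How many passed in the CZA+DAV132 arm depended on single libraries and on scaling. With libraries 16 and 19 left out, none of the 8 passed there, with adjusted p from 0.0641 for Cxcl2, and Ccl12, Pf4 and Ccl6 still passed in the average. The changes in the arm were then -2.27 ± 0.76 for Cxcl2, -2.14 ± 0.78 for Pf4, -1.61 ± 0.75 for Ccl12 and -1.15 ± 0.43 for Ccl6, close to those with all libraries, with fewer libraries and wider errors. Only Cxcl2 passed in the arm with median-ratio scaling, with TPM rescaled without the predicted-gene entries, or with no filter, or without library 13, 15 or 19. Median-ratio scaling also made the changes in the arm smaller. They were then -1.97 ± 0.64 for Cxcl2, -1.71 ± 0.69 for Pf4, -1.37 ± 0.64 for Ccl12 and -0.82 ± 0.40 for Ccl6. Without library 12 Cxcl2 and Pf4 passed, and without library 14 Cxcl2 and Ccl6. In the average Ccl12 and Pf4 passed in all 28 alternatives, Ccl6 in 25 and Cxcl2 in 19, and without library 8 or library 15 the count was 2.

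**Figure D2:**
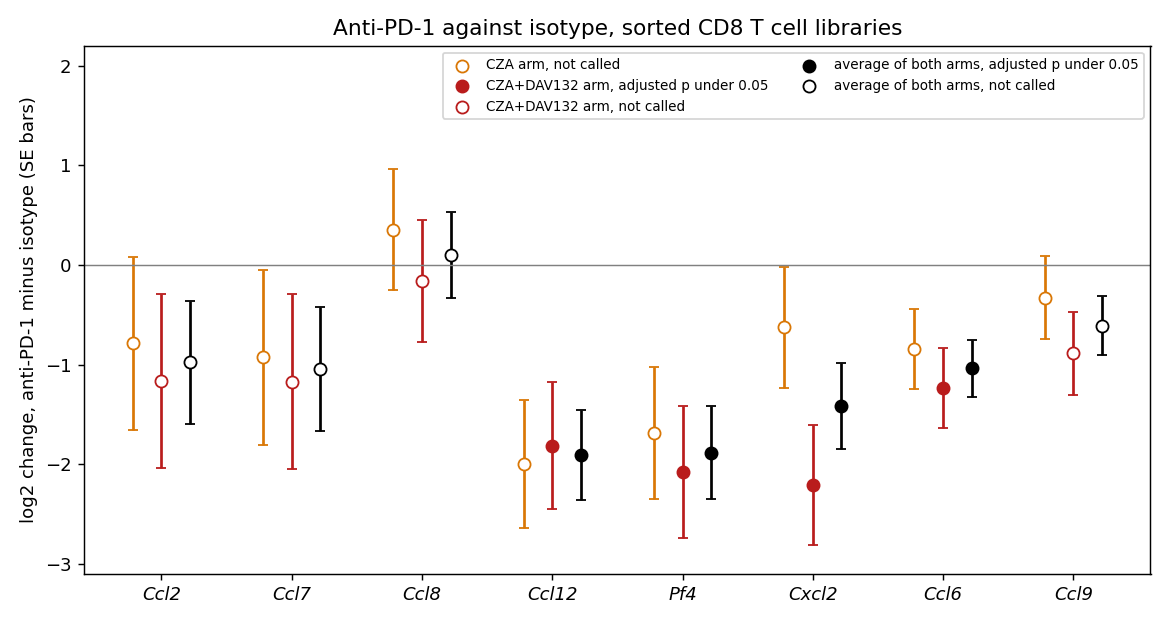
Change of each chemokine between anti-PD-1 and isotype in the CD8 set, in log2 units of TPM + 1 (vertical axis), for the CZA arm, the CZA+DAV132 arm and their average, with bars of 1 SE. Filled points, 4 in the CZA+DAV132 arm and 4 in the average, have a limma adjusted p under 0.05, and no point of the CZA arm does.

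In the CZA arm alone none of the 8 passed with limma, against 0.0155% of all tested genes, and 3 had an unadjusted p under 0.05, against 5.11% of all genes: Ccl12, Pf4 and Ccl6. Their changes were -1.999 ± 0.64 (limma adjusted p = 0.637), -1.69 ± 0.66 (adjusted p = 0.828) and -0.84 ± 0.40 (adjusted p = 0.977). No interaction with the arm passed for any of the 8, against 0% of all genes, and none of the 8 had an unadjusted p under 0.05 there, against 15.7%. The interaction for Ccl12 was 0.18 ± 0.90.

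The CCR2 ligands Ccl2 and Ccl7 moved together. Ccl2 was at 43.4, 211, 18.2, 87.5 and 79.5 TPM with isotype and 62.8, 150.1, 24.4, 9.32 and 32.3 TPM with anti-PD-1 in the CZA arm. The other arm had Ccl2 at 4.27, 59.1, 75.7, 75.5 and 97.9 TPM and 162, 22.4, 9.95, 5.42 and 10.9 TPM in the same order. Library 16, with anti-PD-1, was higher than every isotype library of its arm, and library 11, with isotype, was lower than every anti-PD-1 library. The changes were -0.79 ± 0.87 in the CZA arm and -1.17 ± 0.87 in the CZA+DAV132 arm, and neither passed (limma adjusted p = 0.997 and 0.348). The latter was -1.94 without library 11, -1.93 without library 16 and -0.76 without library 19, and the former ran from -1.28 without library 7 to -0.31 without library 9. Ccl7 was at 1.21, 28.9, 63.4, 42.8 and 78.5 TPM with isotype and 72.3, 15.5, 7.37, 3.02 and 5.26 TPM with anti-PD-1 in the CZA+DAV132 arm, again with library 16 high and library 11 low. Its changes were -0.93 ± 0.88 and -1.17 ± 0.88, which did not pass (adjusted p = 0.997 and 0.351), and the latter was -2.08 without library 11, -1.82 without library 16 and -0.78 without library 19. The TPM of Ccl2 over that of Ccl7 stayed between 0.930 and 3.53 in the 20 libraries.

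Ccl8, the CCR8 ligand, had no clear change under anti-PD-1. It was at 20.4, 32.2, 35.0, 44.9 and 30.4 TPM with isotype and 32.9, 48.7, 33.1, 37.3 and 56.2 TPM with anti-PD-1 in the CZA arm. The CZA+DAV132 arm had Ccl8 at 6.58, 15.9, 48.0, 19.7 and 29 TPM with isotype and 66.3, 45.5, 30.6, 2.27 and 5.93 TPM with anti-PD-1. No CZA anti-PD-1 library was below the isotype median, and libraries 19 and 20 of the other arm were the lowest of the set. The change was 0.36 ± 0.61 in the CZA arm and -0.16 ± 0.61 in the CZA+DAV132 arm, and the latter turned to 0.26 with median-ratio scaling and 0.47 without library 19. Neither passed (limma adjusted p = 0.997 and 0.877).

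Set against its neighbour, the ratio of Ccl12 to Ccl8 TPM, which does not depend on how a library is scaled, was 1.44 to 6.07 in the CZA isotype group and 0.269 to 1.25 with anti-PD-1. These ranges did not overlap. With CZA+DAV132 stool the ratio was 1.38 to 5.18 with isotype, with a median of 3.38, and 0.321 to 4.79 with anti-PD-1, with a median of 0.501. The ratio was chosen after the values were seen and was not tested.

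The comparisons of the FMT arms called none of the 8 with limma. Under anti-PD-1 all 8 were lower with DAV132 in the fit, from -1.16 ± 0.61 for Ccl8 to -0.30 ± 0.64 for Ccl12, with adjusted p from 0.163 to 0.753, against 0.0386% of all genes called. None of the 8 had an unadjusted p under 0.05 there, against 33.5% of all genes, and the median over all genes was -0.40. With median-ratio scaling the value for Ccl12 was 0.20. Under isotype the changes ran from -0.88 ± 0.88 for Ccl7 to 0.52 ± 0.61 for Cxcl2, with adjusted p of 0.99985 and with 0% of all genes called. Averaged over antibodies 2 of the 8, Ccl6 and Ccl8, had an unadjusted p under 0.05, against 17.4% of all genes, and none passed, with 0% of all genes called.

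Macrophage and monocyte markers moved with these chemokines. The 14 markers summed to 316 to 2100 TPM in the CZA isotype group and 85.4 to 546 TPM with anti-PD-1. With CZA+DAV132 stool they summed to 77.9 to 801 TPM with isotype and 57.8 to 299 TPM with anti-PD-1. With limma 13 of the 14 fell in the average over arms, against 10.8% of all tested genes. Among them were the scavenger receptor Cd68 (-1.29), the endotoxin co-receptor Cd14 (-1.86) and C1qc (-1.67), a subunit of complement C1q. Within the CZA+DAV132 arm 5 of the 14 fell, against 19.4% of all tested genes. There 1, Cd68, passed with median-ratio scaling, and 0 passed with libraries 16 and 19 left out. The log2 summed level differed by -1.80 in the CZA arm (exact permutation p = 0.0238) and by -1.48 in the CZA+DAV132 arm (exact permutation p = 0.0794). With 28 such tests in the set and a smallest possible exact p of 0.00794, a single list could not pass adjustment, so the adjusted values decide nothing. Fibroblast and sarcoma markers also followed the chemokines, though unevenly. The median r of the 9 tested of 11 with the mean profile of the 8 was 0.768, against 0.895 for the macrophage list and 0.287 over all genes. Single markers ran from 0.038 to 0.892 in the fibroblast list and from 0.711 to 0.961 in the macrophage list. They summed to 17.3 to 458 TPM in the CZA isotype group, 13.1 to 174 TPM with anti-PD-1, 6.74 to 97.7 TPM in the CZA+DAV132 isotype group and 17.0 to 326 TPM with anti-PD-1, and Lum was listed at 0 in 15 libraries. None of the 9 passed under anti-PD-1 in the arm or in the average. Their median change in the CZA+DAV132 arm was -0.70, while the log2 summed level differed by 0.04, of the opposite sign. The part of either cell type in the chemokine changes was not tested.

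Across the 20 CD8 libraries the log2 level of a chemokine and of the summed markers was correlated for all 8 by Pearson's r. Over the 16 relations computed in both sets, r was 0.955 for Pf4 and 0.948 for Ccl12, with rho of 0.958 and 0.955. The permutation p was 1e-05 for both, the smallest that 100000 permutations can give, and 5.33e-05 after adjustment. Ccl6 had r = 0.894, Ccl7 0.844, Ccl9 0.812, Ccl2 0.789 and Cxcl2 0.705, with rho of 0.925, 0.811, 0.793, 0.768 and 0.752 and adjusted permutation p of at most 0.00074. For Ccl8 r was 0.516 (adjusted permutation p = 0.0291) and rho was 0.242 (adjusted permutation p = 0.345). Without the 2 libraries farthest from the median of the marker level, 5 and 19, r was 0.937 for Pf4 and 0.928 for Ccl12 and 0.617 or more for all but Ccl8, where it was 0.395 and no longer passed. For Ccl8 the pass on TPM as deposited thus rests on those libraries, and with all 20 kept and median-ratio scaling r was also lower, at 0.398. On deviations from the group means r was 0.929 for Pf4, 0.935 for Ccl12 and 0.645 for Ccl8.

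**Figure D3:**
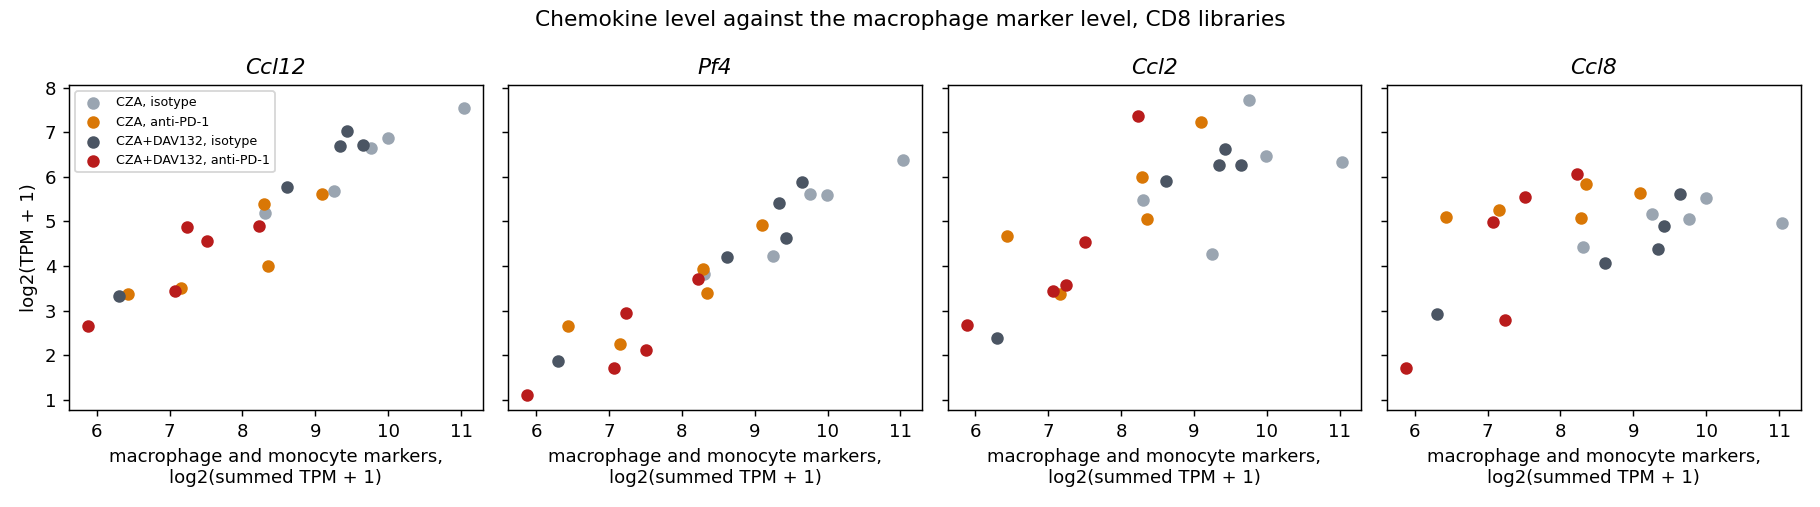
Level of 4 chemokines (vertical axis, log2(TPM + 1)) against the summed level of 14 macrophage and monocyte markers (horizontal axis, log2 of summed TPM + 1) in the 20 CD8 libraries, coloured by group. Ccl12 and Pf4 rise along a narrow band (r of 0.948 and 0.955), Ccl2 scatters more (0.789), and Ccl8 scatters the most (0.516). Several anti-PD-1 libraries with low markers have high Ccl8, but anti-PD-1 libraries 19 and 20, also with low markers, have the lowest Ccl8 of the set.

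Per 100 TPM of these markers, Ccl12 was at 8.27 to 11.4 TPM in the CZA isotype group, 4.64 to 13.2 with anti-PD-1, 11.7 to 18.8 in the CZA+DAV132 isotype group and 7.37 to 18.9 with anti-PD-1. Pf4 was at 2.91 to 5.51, 2.64 to 6.27, 3.41 to 7.26 and 1.71 to 4.50 TPM in the same order. On this scale the anti-PD-1 and isotype ranges overlapped for both, as they did for TPM itself. Medians of Ccl12 with isotype and anti-PD-1 were 11.23 and 8.86 in the CZA arm and 13.74 and 9.645 in the CZA+DAV132 arm. Those of Pf4 were 4.18 and 4.56 in the CZA arm and 4.44 and 1.99 in the CZA+DAV132 arm. Ccl8 was at 1.45 to 6.46 TPM in the CZA isotype group and 8.93 to 38.7 with anti-PD-1, without overlap, and at 3.05 to 8.45 and 3.92 to 25.1 TPM in the CZA+DAV132 arm. The marker sum itself was lower with anti-PD-1, with isotype and anti-PD-1 medians of 865 and 312 TPM in the CZA arm. A gene whose TPM stays level therefore rises on this scale. Medians of Ccl8 TPM itself were 32.2 and 37.3 in that arm. Higher ratios in the CZA arm were not limited to Ccl8. Ccl6 was at 1.26 to 3.78 and 3.59 to 6.53 TPM there, and at 2.445 to 11.35 and 2.37 to 6.64 TPM in the CZA+DAV132 arm. Medians of Ccl2 were 8.585 and 20.2 TPM in the CZA arm and 11.7 and 9.38 TPM in the CZA+DAV132 arm. Those of Cxcl2 were 0.632 and 1.02 TPM, and 1.315 and 0.559 TPM. These ratios were formed after the values were seen and carry no test.

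Among themselves the closest members in the CD8 set were the neighbours Ccl2 and Ccl7 (r = 0.980 over 20 libraries) and, from different chromosomes, Ccl12 and Pf4 (0.946). The neighbours Ccl9 and Ccl6 had r = 0.845, the neighbours Ccl12 and Ccl8 0.363, and Ccl8 and Cxcl2 were the least alike at 0.244. With the remaining members Ccl8 had r of 0.665 for Ccl7, 0.645 for Ccl6, 0.640 for Ccl9, 0.605 for Ccl2 and 0.447 for Pf4. These values share libraries and scaling and are a description. The 5 genes closest to the mean profile of the 8 were C1qa (0.961), Tgfbi (0.944), C1qc (0.941), Lyz2 (0.938) and Fcgr2b (0.937), of which C1qa, C1qc and Lyz2 are on the macrophage list.

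Of the 10 receptors listed for these ligands, 6 passed the filter in the CD8 set. By median TPM these included Cxcr3 at 38.0, Ccr8 at 30.7, Ccr2 at 26.95, Cxcr2 at 2.75 and Ccr1 at 2.03. Ccr3 was at 0.159, Cxcr1 and Ackr1 were listed at 0 in all 20 libraries, and Ackr2 in 16. Ccr8, the receptor of Ccl8, fell in the CZA+DAV132 arm (-1.64 ± 0.41, limma adjusted p = 0.0102), and Ccr1, the receptor of Ccl6 and Ccl9, fell in the average (-0.82 ± 0.21, adjusted p = 0.0207). The fall of Ccr8 did not pass with libraries 16 and 19 left out, and that of Ccr1 did. With median-ratio scaling, and also with libraries 16 and 19 left out, Ccr2 passed as higher in the average.

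Of 14 inflammatory inducers and NF-kB feedback genes, 10 were tested in the CD8 set. In the CZA+DAV132 arm 4 fell and 0 rose, against 19.4% of all tested genes called lower. These were the cytokine Csf2 (-2.72), the NF-kB inhibitors Nfkbia (-2.03) and Tnfaip3 (-1.78), and the cytokine Il1b (-2.27). The list's median was -0.79 against -0.34 over all genes. In the average 4 fell, against 10.8% of all tested genes: Il1b (-1.93), Csf2 (-1.69), Il1rn (-0.87), an inhibitor of IL-1, and Nfkbia (-1.03). Of 28 other chemokines, 17 were tested, and in the CZA+DAV132 arm 5 fell and 2 rose. Among all tested genes 19.4% were called lower there and 23.5% in either direction. By p the first of these falls were of Ccl17 (-3.06) and Ccl22 (-1.22), ligands of CCR4, and Xcl1 (-2.01), which attracts dendritic cells. The other falls, of Ccl1 (-1.80), a ligand of CCR8, and Ccl27a (-1.05), were named after their values were seen, as were Il1b in the arm and Nfkbia in the average. Ccl28 (1.51) and the CXCR3 ligand Cxcl9 (1.15) rose. With libraries 16 and 19 left out, Csf2, Nfkbia, Tnfaip3, Ccl17 and Xcl1 still passed in the arm, and Il1b, Ccl1, Ccl22, Ccl27a, Ccl28 and Cxcl9 did not.

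In the libraries labelled bulk tumour each chemokine had a lower median over all libraries than in the CD8 set, and all but Ccl9 were more often listed at 0. Single groups did not always follow. With CZA and isotype the median of Ccl2 was 91.3 TPM here and 79.5 TPM in the CD8 set. Ccl2 had a median of 23.3 TPM over 19 libraries, Ccl8 18.8, Ccl9 3.54, Ccl7 2.89, Ccl6 2.76, Ccl12 1.24, Cxcl2 0.464 and Pf4 0.296. Pf4 was listed at 0 in 9 libraries, Ccl12 and Cxcl2 in 8, Ccl7 and Ccl8 in 3, Ccl6 in 2, Ccl2 in 1 and Ccl9 in none. The sets were deposited as separate tables, and levels across them were not tested.

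**Figure D4:**
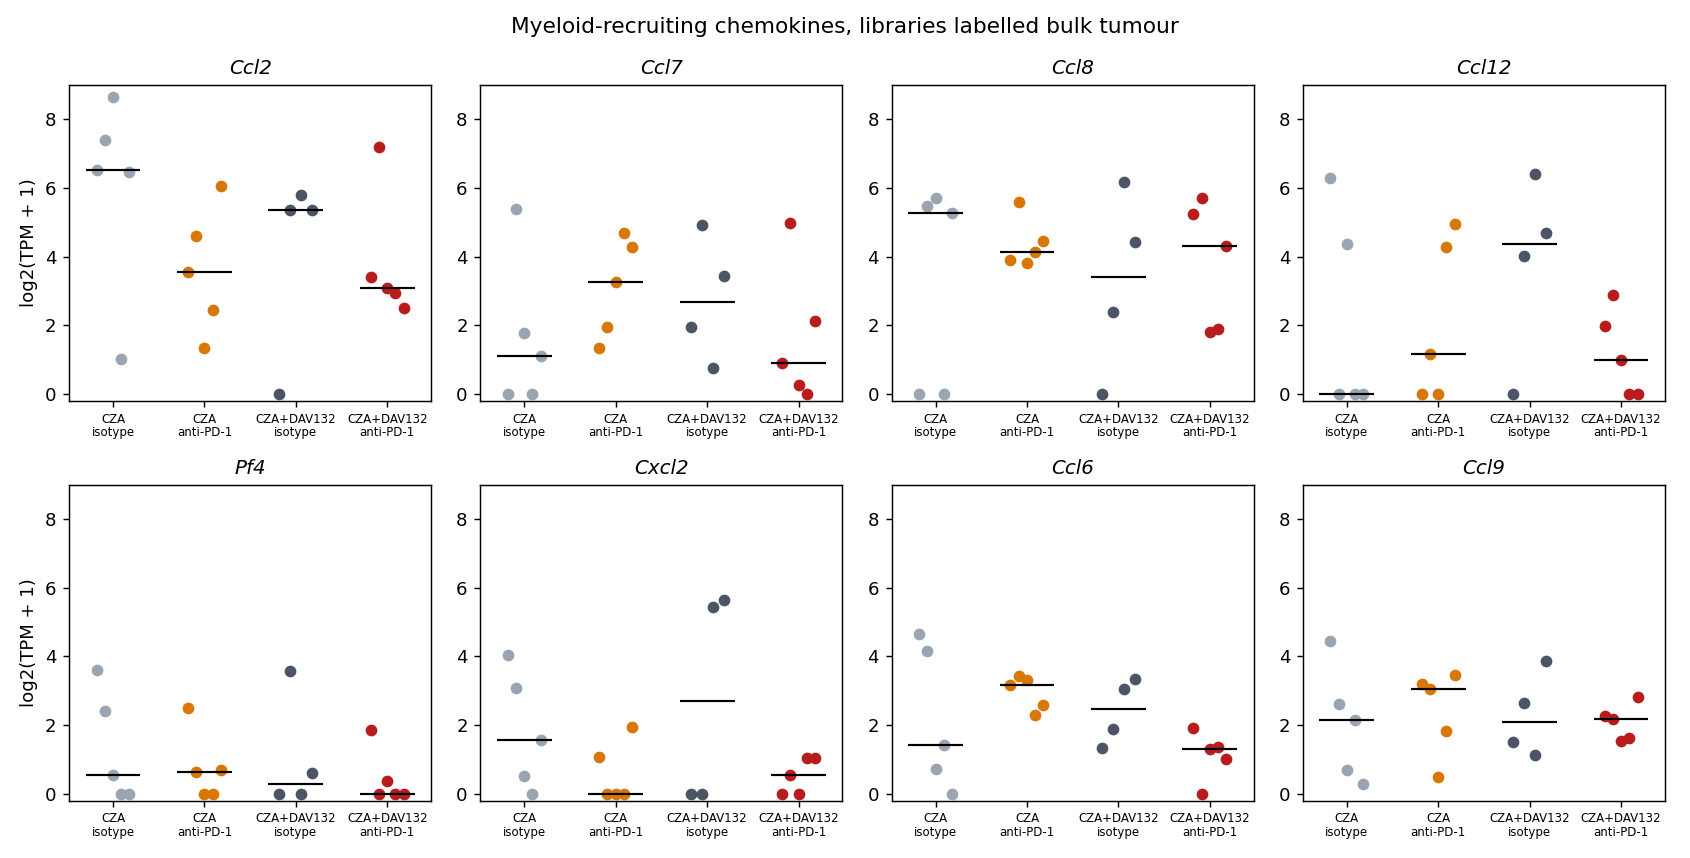
Level of each chemokine in the 19 libraries labelled bulk tumour as log2(TPM + 1) on the vertical axis, by group on the horizontal axis, with a point for each library and a bar at the group median. Points at 0 are libraries where the gene is listed at 0, and within each arm the isotype and anti-PD-1 points overlap for all 8 chemokines.

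No chemokine of the 8 passed in any of the 7 contrasts of the tumour set with limma. The shares of all tested genes called were 0.285% for anti-PD-1 in CZA, 0.24% in CZA+DAV132, 1.07% in the average, 0.113% for DAV132 under isotype, 0.045% for the interaction, and 0% for the other 2 arm comparisons. Over the 8, unadjusted p was under 0.05 for Cxcl2 in the CZA+DAV132 arm and in the average, and for Ccl6 between the arms under anti-PD-1. In these contrasts 10.3%, 12.7% and 7.58% of all genes had such a p, so 1 of 8 is near the background.

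Ccl2 was at 91.3, 167, 398, 1.04 and 87.9 TPM with isotype and 10.6, 23.3, 1.53, 4.49 and 65.6 TPM with anti-PD-1 in the CZA arm. All 5 anti-PD-1 libraries were below the isotype median, and the low isotype library was T987. The change of -2.41 ± 1.31 did not pass (limma adjusted p = 0.447). In the CZA+DAV132 arm Ccl2 was at 0, 39.9, 54.6 and 40.2 TPM with isotype and 9.54, 145, 7.42, 6.61 and 4.71 TPM with anti-PD-1, where library T023 was far above the rest.

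Cxcl2 was at 15.5, 7.48, 0.429, 0 and 1.94 TPM with isotype and 1.11, 0, 0, 0 and 2.83 TPM with anti-PD-1 in the CZA arm. Its values with CZA+DAV132 stool were 0, 0, 42.0 and 48.5 TPM and 0, 0.464, 0, 1.07 and 1.04 TPM. High values were in isotype libraries T027 and T028, while T022 and T024 were listed at 0. The average change of -1.74 ± 0.72 did not pass (limma adjusted p = 0.283). Ccl12 was at 0, 15.3, 83.8 and 24.8 TPM with isotype and 2.96, 6.36, 0.999, 0 and 0 TPM with anti-PD-1 in the CZA+DAV132 arm, a change of -2.61 ± 1.42 (adjusted p = 0.575). In the CZA arm it was at 78.0, 0, 19.7, 0 and 0 TPM and 0, 1.24, 0, 18.3 and 30.1 TPM.

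Ccl6 was at 8.06, 9.83, 8.86, 3.87 and 4.99 TPM in CZA with anti-PD-1 and 2.76, 0, 1.48, 1.56 and 0.998 TPM in CZA+DAV132 with anti-PD-1. These groups did not overlap, but the change of -1.84 ± 0.74 did not pass (limma adjusted p = 0.533). Among all pairwise contrasts of these chemokines in both sets it was the only one without overlap in TPM. The share of all genes without overlap was not counted. Ccl7 was at 0, 41.2, 2.43, 0 and 1.18 TPM with isotype and 1.55, 2.91, 8.60, 24.6 and 18.4 TPM with anti-PD-1 in the CZA arm, a change of 1.45 ± 1.07 (adjusted p = 0.602). Ccl8 ranged from 0 to 71.1 TPM, Ccl9 from 0.210 to 20.6 TPM and Pf4 from 0 to 11.1 TPM over the set.

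In this set the macrophage list summed to 198 to 748 TPM in the CZA isotype group, 48.3 to 286 TPM with anti-PD-1, 55.1 to 462 TPM in the CZA+DAV132 isotype group and 66.8 to 154 TPM with anti-PD-1. Over 19 libraries r with this list was 0.775 for Ccl2 (adjusted permutation p = 0.000389) and 0.584 for Cxcl2 (adjusted permutation p = 0.0134), with rho of 0.756 and 0.592. For Ccl12 r was 0.495 (adjusted permutation p = 0.047) and rho 0.419 (adjusted permutation p = 0.117), and without libraries T986 and T983, the farthest from the median, r was 0.325 and no longer passed. On deviations from the group means Cxcl2 had r = 0.552 and did not pass (adjusted permutation p = 0.0646). The other 5 chemokines had r from 0.0909 to 0.377 and did not pass. The closest genes to the mean profile of the 8 here were Cd74 (0.886), Dab2 (0.849), H2-Eb1 (0.831), Il1b (0.827) and Sirpa (0.760). Of the members, Ccl2 and Ccl7 had r = 0.276 in this set.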

How the data were processed

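RNA was ribosome-depleted and made into directional libraries, per the labels' protocols. Expression was deposited by the authors as TPM, 1 table per set, made with kallisto 0.45 on mouse build GRCm38 per the submitters' processing notes. The annotation is not given in the sources used here. Kallisto shares reads among similar transcripts, so closely related chemokine genes are uncertain, and TPM keeps no depth, so no counting error can be given.

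Each set was fitted alone with limma 3.58.1 in R 4.3.3 on log2(TPM + 1), with 4 group means, a mean-variance trend and genes of at least 1 TPM in at least 4 libraries (12942 in the CD8 set, 13326 in the tumour set). P-values were two-sided and adjusted by Benjamini-Hochberg, with calls under 0.05. Marker lists were summed and tested by exact permutation, and relations by 100000 permutations. The fit was tested on simulated data. Gene places are from GENCODE M21 by symbol.

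The members, lists, tests and most alternatives were chosen with earlier results of these data known. Alternatives were a pairwise fit, a pseudocount of 0.1, no filter, a mean of at least 5 TPM, median-ratio scaling, array weights, no trend, each library left out, and libraries 16 and 19 left out. Rescaling without 10 predicted-gene entries was added after seeing the data. Text names all 8 members, the listed receptors by level (1 is not reported here), up to 3 called genes per direction of another list by p (those beyond it are marked), and the 5 genes closest to the members' mean profile.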

Additional observations from a re-analysis of the deposited data

Results flagged for a closer look

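The highest or lowest library of a group was compared with the next one by Dixon's ratio for 64 groups of chemokine values, and 12 had a gap past the 95% critical value. Chance alone flags about 1 group in 20, and groups with many values at 0 or a skewed spread do so more readily.

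In the CD8 set, the CZA+DAV132 anti-PD-1 library 16 was highest for Ccl2 (162.5 TPM, next 22.4) and for Ccl7 (72.3 TPM, next 15.5). In the CZA+DAV132 isotype group library 14 was highest for Cxcl2 (43.1 TPM, next 9.05).

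In the libraries labelled bulk tumour, T983 of the CZA isotype group was highest for Ccl12 (78.0 TPM, next 19.7) and Ccl9 (20.6 TPM, next 5.17), and T985 for Ccl7 (41.2 TPM, next 2.43). In the CZA anti-PD-1 group T984 was highest for Ccl8 (47.1 TPM, next 20.8) and T982 for Pf4 (4.66 TPM, next 0.608). In the CZA+DAV132 isotype group T024 was highest for Pf4 (10.9 TPM, next 0.510). Among libraries from CZA+DAV132 with anti-PD-1 T023 was highest for Ccl2 (145.4 TPM, next 9.54) and Ccl7 (30.8 TPM, next 3.36), and T021 for Pf4 (2.63 TPM, next 0.296). Library T023 was the highest of its group for both neighbours, Ccl2 and Ccl7.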

How the results depend on the processing

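In the CD8 set the number of the 8 chemokines called for anti-PD-1 in the CZA+DAV132 arm, 4, was 2 with the pairwise fit, 1 with no filter, with median-ratio scaling or with TPM rescaled without the predicted-gene entries, and 0 with libraries 16 and 19 left out. Over single libraries left out it ranged from 1 to 5. For the average over arms the 4 became 2 with no filter and ranged from 2 to 5 with single libraries left out. The counts of 0 in the other contrasts of both sets stayed 0 in each alternative. The change of Ccl8 in the CZA+DAV132 arm turned to 0.26 with median-ratio scaling, 0.32 with array weights, 0.265 in the rescaled TPM and 0.059 without libraries 16 and 19. With single libraries left out it ran from -0.62 to 0.47, and in the average from -0.13 to 0.41. For DAV132 under anti-PD-1 Ccl12 turned to 0.20 with median-ratio scaling and 0.091 in the rescaled TPM, and ran from -0.55 to 0.06 with single libraries left out. Under isotype Ccl7 ran from -1.264 to 0.028 and Cxcl2 from -0.10 to 0.99, and the interaction of Ccl12 from -0.46 to 0.54. In the tumour set Ccl2 under anti-PD-1 between the arms turned to -0.56 with array weights and ran from -0.62 to 0.84, and Ccl8 in the CZA+DAV132 arm from -0.54 to 1.52. The relations that passed numbered 11 of 16, and 9 or 10 in the alternatives. No paired analysis was possible because the groups share no replicate numbers. The cause of these shifts was not tested. The unknown depth limits the lowest chemokines most, which were Cxcl2 in the CD8 set and Pf4 and Cxcl2 in the tumour set.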
